A study of Mus musculus with 26 samples.

Results

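Ucp1 and 9 other genes of beige adipocytes were followed in the inguinal fat depot, a subcutaneous white adipose tissue, of mice without ChREBP. This transcription factor is the product of Mlxipl and responds to glucose. The 10 genes were Ucp1, Cidea, Cox7a1, Cox8b, Elovl3, Dio2, Cpt1b, Ppargc1a, Ppara and Prdm16, chosen by name. The array carried 12 probes with these gene names, out of 56605 different probes, and all 12 were among the 40168 probes (26154 gene names) of the value table. All 12 were well above background on all 26 arrays, so that no gene was lost to the filter on dim probes. Ppargc1a and Ppara had 2 probes each, and the brighter one stands for the gene unless the other is named.

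Tissue came from C57BL6/J male mice, with 1 array per mouse. Total ChREBP KO mice (n = 7) were Mlxipl-null and lacked both isoforms, and ChREBPβ KO mice (n = 5) carried a CRISPR/Cas9 deletion of exon 1b, the exon specific to the shorter isoform. Each line had its own WT mice (n = 7 in each), and the sources used here do not say whether those of the total ChREBP line were littermates. Mice of all 4 groups were fasted for 24 h and refed for 18 h with food and water that contained 20% glucose. Both deletions were present in the whole body, and no age was given. The labels do not say how litters or the independent founder lines were spread over the groups.

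Beige adipocytes are cells of white fat depots that can burn fuel for heat. UCP1 lets protons back across the inner mitochondrial membrane without ATP synthesis. The other genes serve the same programme: CIDEA sits on lipid droplets, COX7A1 and COX8B are subunits of cytochrome c oxidase, ELOVL3 elongates fatty acids, CPT1B admits long-chain fatty acids to mitochondria, DIO2 activates thyroid hormone, and PPARGC1A, PPARA and PRDM16 are transcriptional regulators of the programme.

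Promoters of 3 genes are shown because their levels parted in total ChREBP KO, where Ucp1 was lower, Cox8b missed the threshold and Dio2 was higher. Each runs from 250 bases before to 50 bases after the transcription start in RefSeq, 5′ to 3′ on the gene's strand, on build GRCm38.p6. They are chr8:83290098-83290397 (plus strand) for Ucp1, chr7:140900397-140900696 (minus strand) for Cox8b and chr12:90738989-90739288 (minus strand) for Dio2. Capitals mark the motifs that were found among those searched.
Ucp1: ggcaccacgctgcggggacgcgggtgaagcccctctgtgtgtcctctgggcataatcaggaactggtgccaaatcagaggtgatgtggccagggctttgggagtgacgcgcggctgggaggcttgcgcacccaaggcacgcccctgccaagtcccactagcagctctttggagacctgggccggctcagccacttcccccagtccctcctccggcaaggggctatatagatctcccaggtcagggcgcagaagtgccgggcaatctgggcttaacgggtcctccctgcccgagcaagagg
Cox8b: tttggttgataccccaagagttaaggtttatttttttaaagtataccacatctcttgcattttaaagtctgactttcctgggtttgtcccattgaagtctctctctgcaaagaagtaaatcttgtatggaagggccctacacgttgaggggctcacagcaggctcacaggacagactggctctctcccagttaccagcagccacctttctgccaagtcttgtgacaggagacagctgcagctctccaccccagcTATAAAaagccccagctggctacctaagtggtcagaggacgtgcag
Dio2: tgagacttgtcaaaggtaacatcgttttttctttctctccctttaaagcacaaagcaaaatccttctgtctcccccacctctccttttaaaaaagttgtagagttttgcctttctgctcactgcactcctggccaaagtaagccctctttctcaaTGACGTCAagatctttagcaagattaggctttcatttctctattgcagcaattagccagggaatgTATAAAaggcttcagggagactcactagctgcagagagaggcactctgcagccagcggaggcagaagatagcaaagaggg

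Promoters of 7 of the 10 genes were searched, and those of Cidea, Elovl3 and Cpt1b were not. Entries on chromosome 18, where Cidea lies, were left out of the search of the 10 genes, so nothing is said of its promoter. The E-box CACGTG, the core of the site that ChREBP binds, was in 0 of these 7 windows and in 7.15% of all 32851 promoters of this length. A pair of E-boxes spaced as in a carbohydrate response element was in 0 of 32851. The cyclic AMP response element TGACGTCA was in 1 of the 7, that of Dio2, where it began 95 bases before the start, and in 1.79% of all promoters. The letters TATAAA, those of the TATA box, were in 2 of the 7 and in 13.6% of all. In Dio2 they began 30 bases before the start, and in Cox8b at base 5 of the transcript, after the start, which is not the position of a TATA box. The estrogen-related receptor element TCAAGGTCA (0.423% of all) and the direct repeat of nuclear receptor half-sites (0.0396% of all) were in 0 of 7. Both strands were searched, and an exact match or its absence in so short a window describes letters only.

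Array quality was even, with 70.2% to 76.5% of spots well above background and 0 saturated spots. The targeted gene fell in both lines. The Mlxipl probe A_55_P2119957 changed by -2.28 on the log2 scale in total ChREBP KO and by -1.52 in ChREBPβ KO (limma adjusted p = 1.9e-13 and 6.45e-07), without overlap of KO and WT arrays in either line. Of its other probes, A_55_P2728555 fell in total ChREBP KO (-0.90) and missed the threshold in ChREBPβ KO (-0.68), and A_55_P2045158 passed in neither. Markers of tissue other than fat varied between arrays. The skeletal muscle score, the mean log2 intensity of 12 muscle genes, ranged from 5.89 to 11.79 among total ChREBP WT arrays and from 6.27 to 12.54 in total ChREBP KO. The lymphocyte score, over 12 genes, was between 10.58 and 12.33 in total ChREBP WT, 7.67 and 11.003 in total ChREBP KO, 6.98 and 7.78 in ChREBPβ WT and 6.96 and 8.61 in ChREBPβ KO. The adipocyte score, over 10 genes, had a mean of 15.66 in total ChREBP WT and 16.21 in total ChREBP KO, and these ranges did not overlap. A model with the adipocyte score therefore cannot separate it from genotype in that line. In whole tissue, fewer beige adipocytes and less of each RNA per cell cannot be told apart.

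Ucp1 (probe A_51_P426353, chromosome 8, 85821788 to 85821847 of mm9) separated total ChREBP WT from every other group. Its log2 intensity was between 12.58 and 16.53 (median 16.21) in total ChREBP WT and between 7.38 and 10.099 (median 8.10) in total ChREBP KO. It was between 6.51 and 11.57 (median 8.76) in ChREBPβ WT, and the ChREBPβ KO arrays read 5.68, 6.09, 7.21, 7.74 and 8.62. The lowest total ChREBP WT array was thus above the highest array of each other group, while those groups overlapped. Group means were 15.46 ± 1.43 (SD, n = 7), 8.59 ± 1.06 (SD, n = 7), 8.61 ± 2.01 (SD, n = 7) and 7.07 ± 1.20 (SD, n = 5) in the same order.

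**Figure D1:**
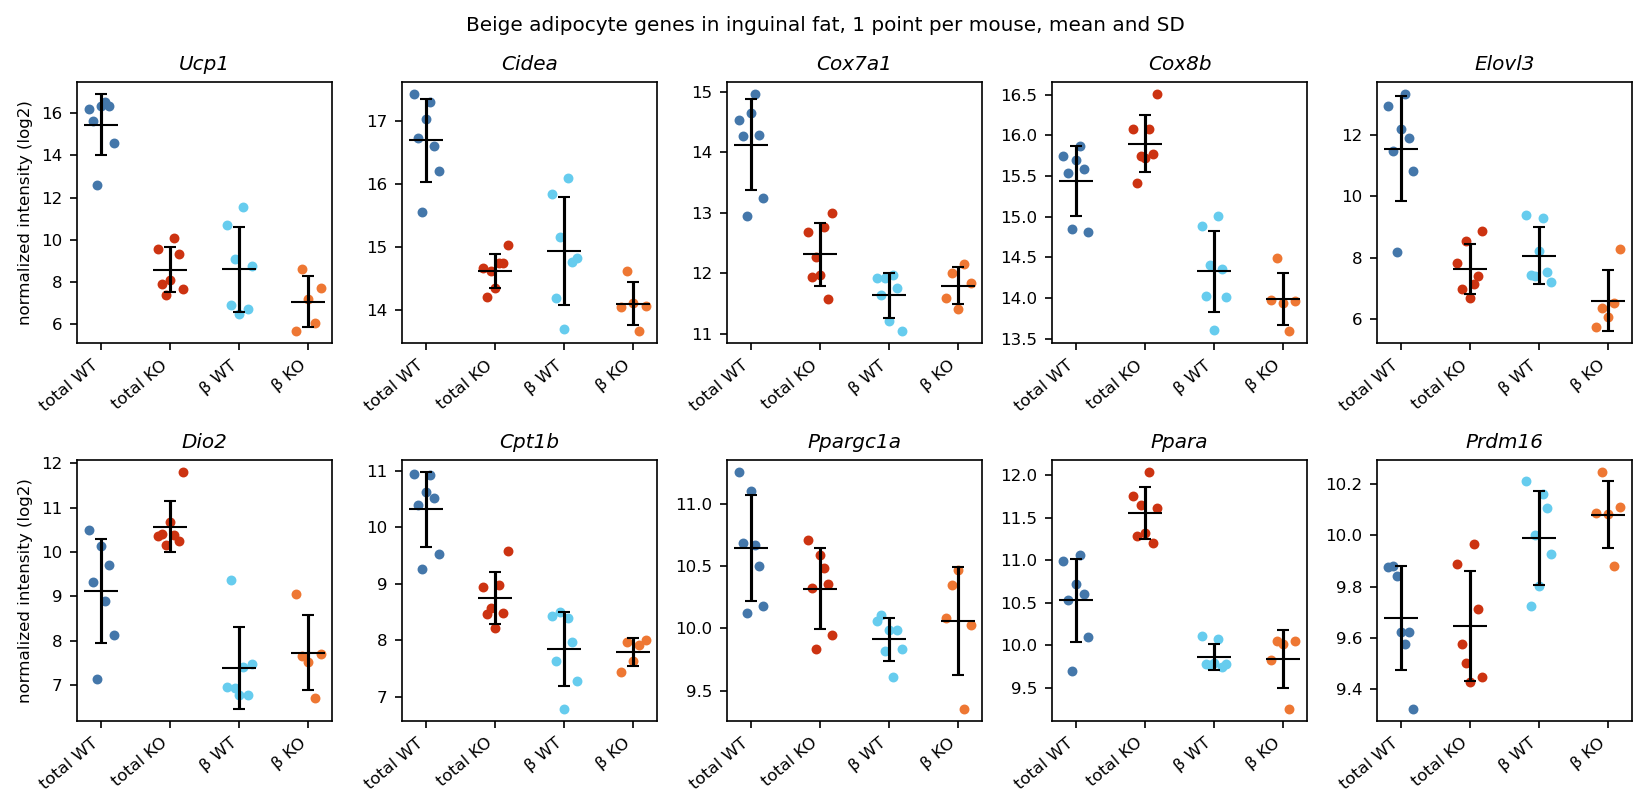
Normalized log2 intensity (y axis, a separate scale for each gene) of the 10 genes in each group (x axis), with 1 point per mouse and bars at the mean ± SD. Ucp1 of total ChREBP WT lies between 12.58 and 16.53, above all arrays of the other groups, whereas Dio2 and Ppara are highest in total ChREBP KO.

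Loss of both isoforms was examined by comparing total ChREBP KO with the WT of its line. Of the 10 genes, 5 fell and 2 rose, and 3 did not pass. The genes that fell were Ucp1, Elovl3, Cidea, Cox7a1 and Cpt1b, which serve uncoupling, respiration and the handling and oxidation of lipid. Those that rose were Dio2 and Ppara. Of all genes, 45.9% passed in this comparison (25.7% higher and 20.2% lower). The median log2 difference was -0.95 over the 10 genes and 0.05 over all genes.

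Ucp1 changed by -6.87 in total ChREBP KO (SE 0.75, 95% CI -8.41 to -5.33, limma adjusted p = 7.06e-08), a level 117-fold lower. In an exact permutation test (two-sided) over this line, p was 0.000583, the smallest that 3432 regroupings allow. Within the 4 wash batches, which the labels give, the difference was between -7.46 and -6.71. It was -5.84 with the skeletal muscle score in the model and -7.28 with the lymphocyte score, and it was -7.35 without total ChREBP WT replicate 1, the array with the lowest Ucp1 of its group.

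Elovl3 (chromosome 19, 46209325 to 46209384) was the next largest fall. Its log2 intensity was 8.18 to 13.30 (median 11.87) in total ChREBP WT and 6.69 to 8.87 (median 7.40) in total ChREBP KO. Replicate 1 of the WT was the single WT array inside the range of the KO. The change was -3.90 (SE 0.59, limma adjusted p = 8.89e-06).

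Cidea (chromosome 18, 67527351 to 67527410) fell without overlap of the arrays. It was 15.55 to 17.42 (median 16.73) in total ChREBP WT and 14.21 to 15.03 (median 14.66) in total ChREBP KO. The change was -2.07 (SE 0.30, limma adjusted p = 5.09e-06), or 4.19-fold. Of the called differences, those of Ucp1, Cidea, Cox7a1 and Elovl3 passed with slide as a fixed block. Those of Cpt1b (-1.49, adjusted p = 0.0548), Dio2 (1.46, adjusted p = 0.161) and Ppara (0.84, adjusted p = 0.0667) did not, at differences near those without the block.

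Cox7a1 and Cox8b, both subunits of the same respiratory enzyme, parted. Cox7a1 (chromosome 7, 30970337 to 30970948) was 12.94 to 14.96 (median 14.28) in total ChREBP WT and 11.57 to 12.99 (median 12.26) in total ChREBP KO. It changed by -1.82 (SE 0.27, limma adjusted p = 5.97e-06), and only the lowest WT array and the highest KO array crossed. Cox8b (chromosome 7, 148084852 to 148084911) was 14.81 to 15.87 (median 15.59) in total ChREBP WT and 15.41 to 16.50 (median 15.77) in total ChREBP KO. Its difference of 0.46 (95% CI 0.03 to 0.89, limma adjusted p = 0.0774) did not pass, and most arrays of both groups overlapped. It passed without total ChREBP KO replicate 3 (0.54, adjusted p = 0.0435).

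Cpt1b (chromosome 15, 89246836 to 89246895) fell by 1.57 (SE 0.28, limma adjusted p = 6.56e-05). Its range was 9.27 to 10.94 (median 10.52) in total ChREBP WT and 8.22 to 9.59 (median 8.58) in total ChREBP KO. With the adipocyte score in the model the difference was -1.83 (adjusted p = 0.0588). The array files give this probe a second transcript besides that of Cpt1b, so its signal may not be of Cpt1b alone.

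Dio2 and Ppara moved the other way from Ucp1. Dio2 (chromosome 12, 91963235 to 91963294) was 7.14 to 10.50 (median 9.32) in total ChREBP WT and 10.15 to 11.81 (median 10.38) in total ChREBP KO. It rose by 1.46 (SE 0.45, limma adjusted p = 0.0108), although the WT arrays spread over 3.35 log2 units and reached into the KO range. The Dio2 difference was the least settled of the called ones: it was 0.66 (adjusted p = 0.539) with the lymphocyte score in the model and 1.46 (adjusted p = 0.161) with slide as a fixed block. With the adipocyte score it was -0.55 (adjusted p = 0.774), but that score did not overlap between these groups and cannot be separated from genotype. Within the 4 wash batches the Dio2 difference was between -0.12 and 2.11.

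Ppara (chromosome 15, 85632110 to 85632169) was 9.69 to 11.06 (median 10.61) in total ChREBP WT and 11.20 to 12.04 (median 11.62) in total ChREBP KO, without overlap. It rose by 1.03 (SE 0.17, limma adjusted p = 3.94e-05), and its other probe, A_55_P2071596, rose by 1.14 (adjusted p = 6.26e-06), also without overlap. With the adipocyte score in the model the difference was 0.33 (adjusted p = 0.633). The adipocyte score itself was higher in KO without overlap, so this model cannot separate it from genotype. Arrays did not overlap for 3 of the 10 genes (Ucp1, Cidea and Ppara), against 14.6% of all genes.

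Ppargc1a and Prdm16, regulators upstream of much of the programme, did not pass. The difference of Ppargc1a (chromosome 5, 51848928 to 51848987) was -0.33 (95% CI -0.69 to 0.04, limma adjusted p = 0.137), with WT arrays between 10.12 and 11.26 and KO arrays between 9.83 and 10.71. Its second probe gave -0.17. It passed with wash batch as a block (-0.40, adjusted p = 0.0433) and with the adipocyte score in the model (-1.32, adjusted p = 0.0053). Prdm16 (chromosome 4) was 9.32 to 9.88 in WT and 9.43 to 9.97 in KO, a difference of -0.03 (95% CI -0.24 to 0.17, limma adjusted p = 0.822).

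**Figure D2:**
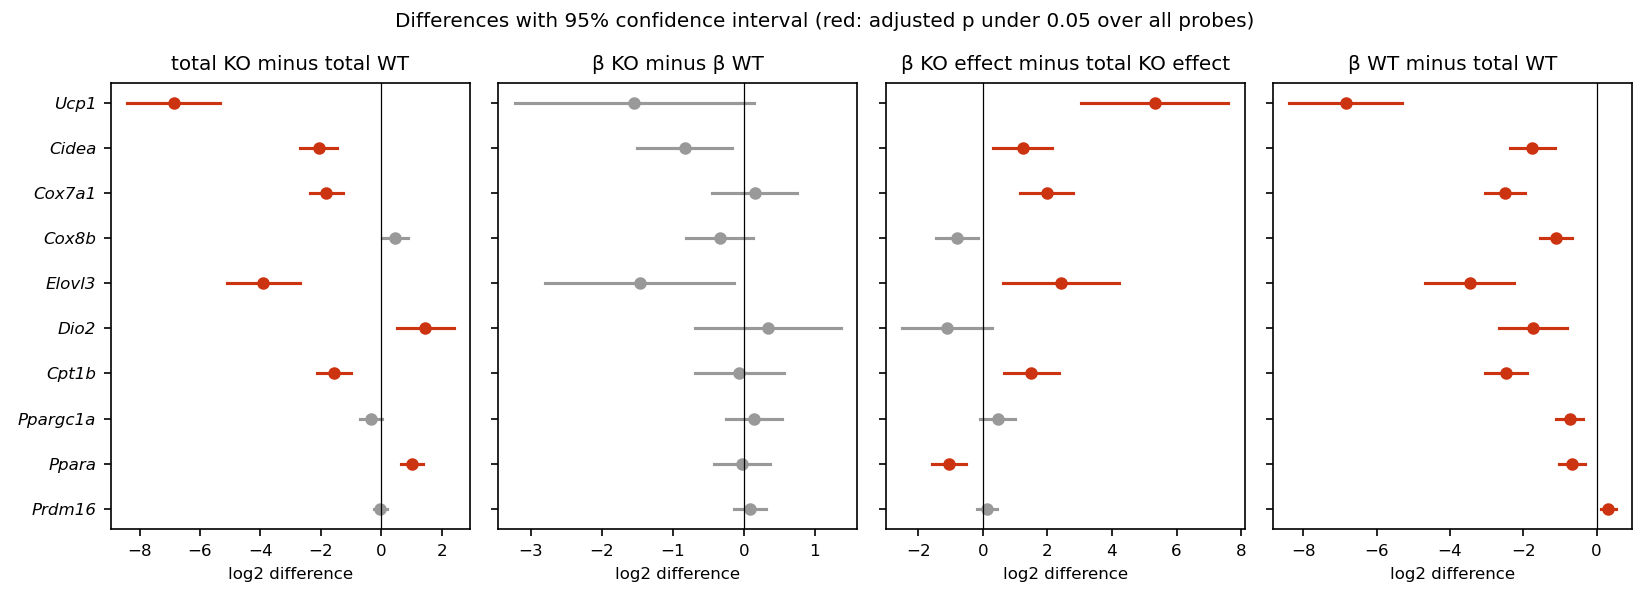
Log2 differences (x axis, a separate scale in each panel) of the 10 genes (y axis) with 95% confidence intervals, for both KO comparisons, the difference between the KO effects and the WT groups of the lines. Points in red passed an adjusted p of 0.05 in limma. In ChREBPβ KO 0 of 10 passed, and in total ChREBP KO 7 of 10 did.

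Loss of ChREBPβ alone was examined in the same way. Of the 10 genes, 0 passed in ChREBPβ KO against its WT in limma, where 0.0497% of all genes did, and 2 had an unadjusted p under 0.05. Those were Cidea, with a difference of -0.83 (95% CI -1.51 to -0.16, adjusted p = 0.523), and Elovl3, with -1.47 (95% CI -2.80 to -0.14, adjusted p = 0.579). The Ucp1 difference was -1.54, and its interval of -3.23 to 0.14 holds both no difference and a fall of several-fold (adjusted p = 0.697). The exact permutation p for Ucp1 was 0.162 over 792 regroupings.

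ChREBPβ KO arrays overlapped those of WT for each of the 10 genes, and 0.356% of all genes had no overlap. Cidea read 13.66, 14.05, 14.06, 14.12 and 14.62 in ChREBPβ KO, against 13.70 to 16.09 (median 14.82) in WT. Elovl3 read 5.75, 6.08, 6.36, 6.53 and 8.29 in KO, against 7.22 to 9.38 (median 7.55) in WT, with 4 KO arrays below all WT arrays. Differences of the other genes were between -0.34 for Cox8b and 0.35 for Dio2. Within the 3 wash batches that held both groups, the Ucp1 difference was between -3.56 and 0.14.

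Whether the KO effects differed was tested as ChREBPβ KO effect minus total ChREBP KO effect. Of the 10 genes, 6 passed, against 23.2% of all genes. Of these, 5 were positive (10.2% of all genes), with the ChREBPβ KO difference above that of total ChREBP KO: Ucp1 by 5.32 (SE 1.11, limma adjusted p = 0.00135), Elovl3 by 2.43 (adjusted p = 0.0462), Cox7a1 by 1.97 (adjusted p = 0.000933), Cpt1b by 1.51 (adjusted p = 0.0107) and Cidea by 1.23 (adjusted p = 0.0467). Ppara was the 1 negative call, with -1.05 (adjusted p = 0.00524; 13% of all genes). The calls of Cidea and Elovl3 lay near the threshold and were each lost when any of 19 of the 26 arrays was left out. With slide as a fixed block 0 of 10 passed, Ucp1 included (6.60, adjusted p = 0.0781), and with the lymphocyte score in the model Ppara did not (-0.68, adjusted p = 0.219). Dio2 rose in total ChREBP KO and did not pass in ChREBPβ KO, but its effects were not shown to differ (-1.11, adjusted p = 0.25).

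The WT groups of both lines differed widely in these genes, and the smaller effect in ChREBPβ KO was measured from a WT group that already read low. Of the 10 genes, all 10 passed in ChREBPβ WT against total ChREBP WT, 9 lower and 1 higher, where 45.8% of all genes passed (19.7% lower and 26.1% higher). Ucp1 fell by 6.84 on the log2 scale (limma adjusted p = 1.06e-07), close to its difference between total ChREBP KO and WT. Elovl3 changed by -3.47, Cox7a1 by -2.49, Cpt1b by -2.46, Cidea by -1.75 and Dio2 by -1.73. Cox8b changed by -1.11, Ppargc1a by -0.73 and Ppara by -0.67, and Prdm16 was the exception with a rise of 0.31 (adjusted p = 0.0124). Arrays did not overlap for 4 of 10 genes (Ucp1, Cox7a1, Cpt1b and Ppargc1a), against 16.9% of all genes. All 12 lymphocyte genes were also lower in ChREBPβ WT, and with the lymphocyte score in the model 6 of the 10 genes passed. That score was 10.58 to 12.33 in total ChREBP WT and 6.98 to 7.78 in ChREBPβ WT. Without overlap, the model cannot separate score from line, so its passes and losses decide nothing about either. Of the 4 that did not, Cidea (-2.29, adjusted p = 0.0539), Dio2 (-3.29, adjusted p = 0.0562) and Ppargc1a (-1.23, adjusted p = 0.0676) had larger differences than without the score, and Prdm16 a smaller one (0.06, adjusted p = 0.908). Line, litter and colony cannot be told apart in this comparison.

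Total ChREBP KO was also set against ChREBPβ WT. Genotype and line differ together here and cannot be told apart, and all 12 lymphocyte genes (median 2.28) and 5 of 10 adipocyte genes were higher in total ChREBP KO, whose part in the result was not tested. Ucp1 differed by -0.02 (95% CI -1.56 to 1.52, limma adjusted p = 0.986), Cidea by -0.32 and Elovl3 by -0.43, and these did not pass. Dio2 was higher in total ChREBP KO by 3.19 (adjusted p = 8.74e-06), Ppara by 1.69, Cox8b by 1.57 and Cpt1b by 0.90, and Prdm16 fell by 0.34. Thus 5 of 10 genes passed, 4 higher and 1 lower, against 31.5% of all genes (16% higher and 15.5% lower). Ppargc1a did not pass (0.41, limma adjusted p = 0.084), but its other probe did (0.54, limma adjusted p = 0.0493). In ChREBPβ KO against total ChREBP KO, 5 passed, Dio2, Cox8b, Ppara and Cpt1b lower and Prdm16 higher, against 27.1% of all genes (13.4% lower and 13.7% higher). These comparisons share the total ChREBP KO arrays. Dio2 fell by 2.85 there (adjusted p = 0.000146), and Ucp1 differed by -1.52 (adjusted p = 0.182).

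The order of Ucp1 levels was therefore total ChREBP WT first, then ChREBPβ WT and total ChREBP KO, which did not differ beyond their spread, then ChREBPβ KO, which was not shown to differ from either. Dio2 and Ppara were instead highest in total ChREBP KO. Neither gene passed between the groups of the ChREBPβ line.

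Which genes follow Ucp1 from mouse to mouse was measured within groups, with a mean for each group and the Ucp1 probe as a covariate. Of the other 9 genes, 1 passed, Cidea, where 0.0306% of all genes had a positive slope that passed. Its slope was 0.33 log2 units per log2 unit of Ucp1 (SE 0.05, limma adjusted p = 0.00235), and its r with Ucp1 after group means were removed was 0.84 over 26 arrays, rank 2 of 26153 genes. Cidea kept its call with the muscle or the lymphocyte score in the model, and without each single array in turn (slope 0.30 to 0.36, highest adjusted p = 0.0474). It lost the call with the replicate number (0.36, adjusted p = 0.122) or the slide (0.30) as a block.

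Cox8b came next, with a slope of 0.20 (SE 0.04, limma adjusted p = 0.057), r of 0.74 and rank 9, just short of the threshold. Ppara (r = 0.66), Cpt1b (0.65), Elovl3 (0.56), Cox7a1 (0.51) and Prdm16 (0.50) had lower r after group means were removed, and their slopes did not pass. Ppargc1a (0.35) and Dio2 (0.15) were lowest, and 30.9% of all genes had a higher r with Ucp1 than Dio2 did.

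**Figure D3:**
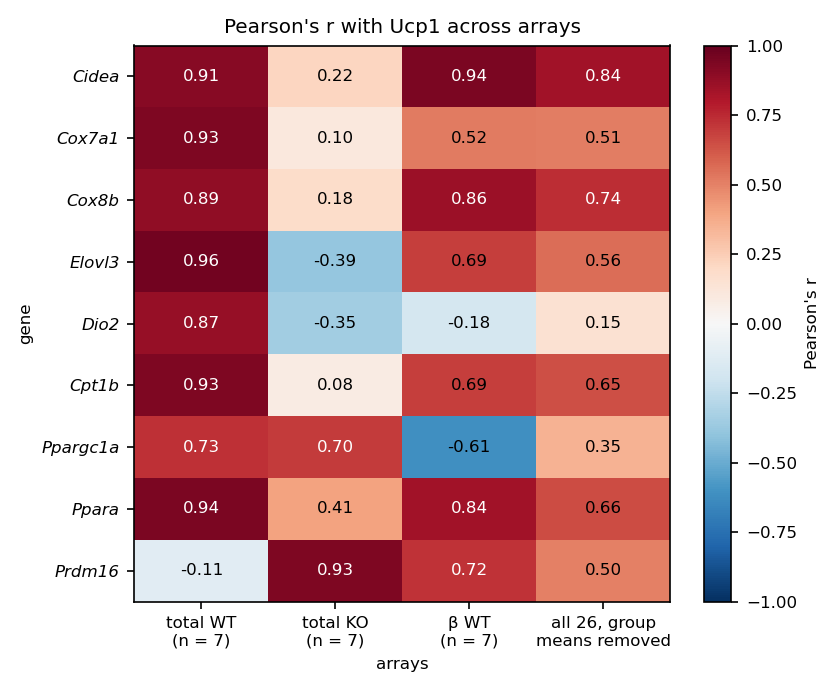
Pearson's r of each gene (rows) with Ucp1 across the arrays of the groups of 7 and across all 26 arrays after group means were removed (columns), on a colour scale from -1 to 1. In total ChREBP WT, 8 of the 9 genes lie between 0.73 and 0.96, and Prdm16 lies at -0.11.

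Within single groups, 36 relations with Ucp1 were computed (9 genes in 3 groups of 7 and over all arrays, with ChREBPβ KO left out at n = 5), and whether r differed between groups was not tested. Among total ChREBP WT arrays, Elovl3 had r = 0.96 (rho = 0.86, exact permutation p = 0.00179 and 0.0238), Ppara r = 0.94, Cox7a1 r = 0.93, Cpt1b r = 0.93, Cidea r = 0.91, Cox8b r = 0.89, Dio2 r = 0.87 and Ppargc1a r = 0.73. Replicate 1 was the lowest of these 7 arrays for Ucp1, Cidea, Cox7a1, Elovl3, Dio2, Cpt1b, Ppargc1a and Ppara, and its muscle score of 11.79 was the highest of the group. Without the 2 arrays farthest from the median Ucp1, r was 0.72 for Elovl3 and 0.44 for Cidea, and 0.02 for Dio2 and 0.06 for Ppargc1a, whose relations rested on those arrays. Prdm16 did not track Ucp1 there (r = -0.11, rho = -0.29, exact permutation p = 0.781 and 0.556).

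Among total ChREBP KO arrays, Prdm16 had the highest r (0.93, rho = 0.75, exact permutation p = 0.00536 and 0.0663), followed by Ppargc1a (0.70, rho = 0.82, exact permutation p = 0.0944 and 0.0341). Without the 2 farthest arrays these were 0.78 and 0.57. Cidea had r = 0.22, Cox8b 0.18, Cpt1b 0.08 and Elovl3 -0.39. Ucp1 spanned 2.72 log2 units in total ChREBP KO, against 3.95 in total ChREBP WT and 5.06 in ChREBPβ WT.

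Among ChREBPβ WT arrays, Cidea followed Ucp1 closely (r = 0.94, rho = 0.96, exact permutation p = 0.00179 and 0.00278), and r was 0.90 without the 2 farthest arrays. Cox8b (r = 0.86, rho = 0.86, exact permutation p = 0.0145 and 0.0238) and Ppara (r = 0.84, rho = 0.46, exact permutation p = 0.0335 and 0.302) were next. Dio2 (r = -0.18, rho = 0.43, exact permutation p = 0.765 and 0.354) was not shown to follow, and its r and rho differed in sign. Nor was Ppargc1a (r = -0.61, rho = -0.46, exact permutation p = 0.138 and 0.302). Without the 2 farthest arrays, r of Cox8b was 0.69 and that of Ppara 0.78.

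**Figure D4:**
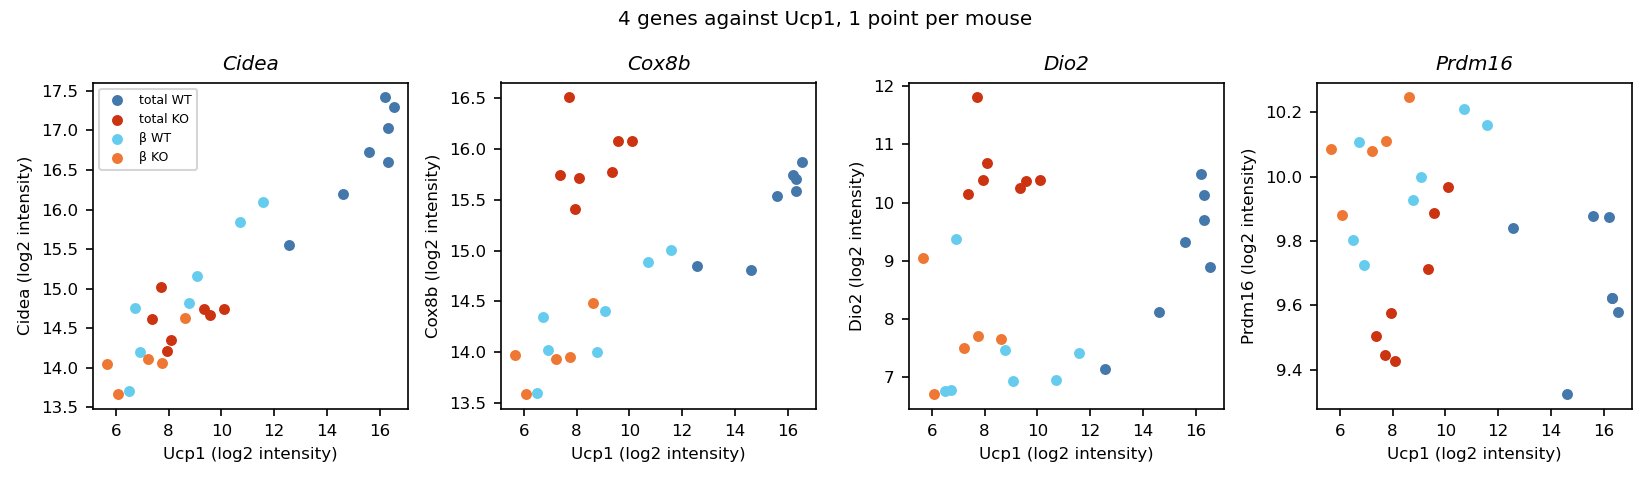
Log2 intensity of Cidea, Cox8b, Dio2 and Prdm16 (y axes) against that of Ucp1 (x axes), with 1 point per mouse coloured by group. Cidea rises with Ucp1 in ChREBPβ WT (r = 0.94). In total ChREBP WT its r was 0.91 but its rho 0.64 (exact permutation p of rho = 0.139). There r was 0.44 without the 2 arrays farthest from the median Ucp1. In total ChREBP KO Cidea stays between 14.21 and 15.03 while Ucp1 lies between 7.38 and 10.099. Cox8b and Dio2 of total ChREBP KO stand above arrays of similar Ucp1.

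Among the genes whose pattern was most like that of Ucp1, by r after group means were removed (n = 26 arrays), were Esrrg (0.86), Cidea (0.84), Acot11 (0.83), Otop1 (0.81), Impa2 (0.76), Gm9885 (0.75) and Aspg (0.74). Esrrg encodes an estrogen-related receptor and Acot11 a thioesterase of brown fat. In total ChREBP KO, Acot11 changed by -4.42 (limma adjusted p = 4e-09), Aspg by -3.98, Gm9885 by -3.95, Impa2 by -2.75, Otop1 by -2.01 and Esrrg by -0.78 (adjusted p = 0.0134). Among total ChREBP WT, total ChREBP KO and ChREBPβ WT arrays in turn, r with Ucp1 was 0.62, 0.96 and 0.94 for Esrrg, 0.98, 0.20 and 0.88 for Acot11 and 0.82, 0.58 and 0.94 for Otop1.

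Other genes of thermogenic fat were taken from lists chosen with earlier results of these data known. The counts are therefore a description and no independent test, and Acot11, Aspg and Otop1, named above, are among the effector genes. In total ChREBP KO the counts stand beside 20.2% of all genes lower, 25.7% higher and 45.9% called in either direction. Of 20 effector genes, 19 were measured, of which 10 fell and 3 rose in total ChREBP KO (median -0.52). The largest falls were Acot11, Aspg, Slc27a2 (-2.71) and Kcnk3 (-2.30), and the genes that rose were Cpt2, Nrg4 and Clstn3. Of 8 beige fat markers, 5 fell and 1 rose (median -0.82). P2rx5 changed by -2.0, Cd40 by -1.57, Tnfrsf9 by -1.55 and Tmem26 by -0.79, while Slc36a2 rose by 0.54. Cd40 and Tnfrsf9 are also expressed by lymphoid cells, and all 12 lymphocyte genes fell in total ChREBP KO (median -2.46). The part of such cells in these falls was not tested.

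Of the brown fat lineage list, 7 of 8 genes were measured, of which 3 fell and 2 rose, with Mpzl2 at -2.22, Epsti1 at -1.94, Lhx8 at 0.85 and Oplah at 0.76. Of 18 browning regulators, 17 were measured, of which 4 fell and 4 rose (median -0.04). Fgf21, a hormone that acts on fat, changed by -3.43, whereas its coreceptor Klb rose by 0.82. Adrb3, the adrenergic receptor of adipocytes, rose by 1.53, and Irf4 changed by -0.60. Of the 6 genes of the uncoupling protein family, 3 fell, Ucp1, Ucp2 (-1.01) and Ucp3 (-0.98), and Slc25a14, Slc25a27 and Slc25a30 did not pass. The part of lymphoid cells in the falls of Ucp2, Irf4 and Epsti1 was not tested. None of the genes on these lists passed in ChREBPβ KO against its WT.

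**Figure D5:**
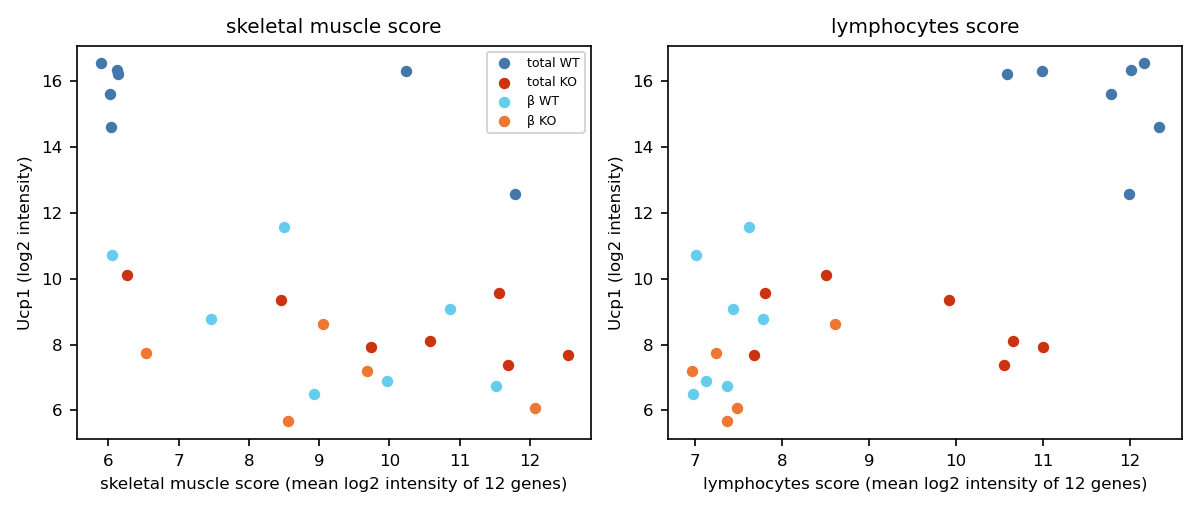
Log2 intensity of Ucp1 (y axes) against the skeletal muscle score and the lymphocyte score (x axes, mean log2 intensity of 12 genes each), with 1 point per mouse coloured by group. Ucp1 of total ChREBP WT is at 12.58 or above at all muscle scores, and the highest lymphocyte scores belong to the same group.

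Muscle and lymphoid genes moved with some of these results. Of 12 muscle genes, 3 rose in total ChREBP KO and 9 did not pass: Acta1 rose by 2.74 (limma adjusted p = 0.0323), Tnnc2 by 4.29 and Myh4 by 5.32. After group means were removed, Ucp1 had r = -0.56 with the muscle score (rho = -0.51, permutation p = 0.00452 and 0.0171, n = 26, among 40 relations computed), and r was -0.42 without the 2 arrays farthest from its median. The slope of Ucp1 on the muscle score did not pass over all genes (adjusted p = 0.415), nor did that of the other 9 genes. The mean muscle score was 10.12 in total ChREBP KO and 7.46 in total ChREBP WT. Among the 7 total ChREBP KO arrays, r with this score was 0.24 for Cox8b, 0.23 for Cox7a1 and 0.25 for Cpt1b. Without the 2 arrays farthest from the median score these were 0.90, 0.89 and 0.80. Ucp1 was then at -0.04, Ppargc1a at -0.46 and Prdm16 at -0.007. The part of muscle in the low r of Cidea, Cox8b, Cox7a1, Cpt1b and Elovl3 with Ucp1 in that group was not tested. Of the 10 genes, 0 had a slope on the lymphocyte score that passed, and Ppargc1a and Prdm16 had positive slopes on the adipocyte score (adjusted p = 0.0109 and 0.0342). Of all genes, 0.539%, 11.2% and 15.7% passed on the muscle, lymphocyte and adipocyte scores.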

How the data were processed

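RNA of inguinal subcutaneous white adipose tissue of 26 mice was measured on 26 one-colour (Cy3) Agilent arrays. The authors analyzed the scanned images with Agilent Feature Extraction 10.10.1.1 and took median pixel intensity per spot. They filtered probes on quality, applied quantile normalization and resolved replicate probes by the median. The main values are the authors' deposited log2 intensities (40168 probes, 97 missing), which are relative levels: a rise of 1 gene's signal is read against a common distribution. The deposited scanner intensities per spot served for checks and for alternatives, since a value table rebuilt from them differed by at most 0.150 for these probes. No column of the value table was left unused. Probe coordinates are those of the array files (mm9).

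Groups followed the genotype labels. One mean per group was fitted in limma 3.58.1 (R 4.3.3; 22 residual degrees of freedom), with Benjamini-Hochberg adjustment over all probes and a threshold of 0.05. The brightest probe stood for a gene name. Slopes on Ucp1 came from the same model with the Ucp1 probe as a covariate. Scripts were tested on simulated data. Precision is limited by the number of arrays, and p-values measure the spread between mice. Alternatives covered normalization, background correction, the filter, the choice of probe, wash batch, slide, replicate number, array weights, tissue scores and leaving out single arrays. The adipocyte score as a covariate and the slopes on the scores were added after seeing the data. The genes named are the 10 members, those of the lists and those among the 8 genes with the highest r with Ucp1, of which 1 is not reported here. The members and lists were chosen with earlier results of these data known.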

Additional observations from a re-analysis of the deposited data

Results flagged for a closer look

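Single arrays stood apart from their group in 3 of 40 groups of values tested (10 genes in 4 groups), and chance flags a few such arrays. Dio2 of ChREBPβ WT replicate 2 read 9.37 with the next array at 7.46, a gap of 0.733 of the group's range. Dio2 of total ChREBP KO replicate 7 read 11.81 with the next at 10.67 (0.686 of the range). Ppara of ChREBPβ KO replicate 4 read 9.25 with the next at 9.83 (0.718 of the range).

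The KO effects differed between the lines, as ChREBPβ KO effect minus total ChREBP KO effect in limma, for 6 genes, against 23.2% of all genes. The difference was 5.32 for Ucp1, 2.43 for Elovl3, 1.97 for Cox7a1, 1.51 for Cpt1b, 1.23 for Cidea and -1.05 for Ppara on the log2 scale. With slide as a fixed block, 0 of these 6 passed. The calls of Cidea and Elovl3 were each lost when any of 19 of the 26 arrays was left out.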

How the results depend on the processing

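Counts of the 10 genes called were recomputed under 17 alternatives (16 for the difference between the KO effects, for which using only the groups compared gives no value) and 26 times with 1 array left out. In total ChREBP KO the count of 7 was 4 with slide as a fixed block, 5 with the adipocyte score (0 of them higher), 6 with the lymphocyte score or both scores, 8 with wash batch and 7 to 8 without single arrays. In ChREBPβ KO it was 0 throughout. For the difference between the KO effects the count of 6 was 0 with the slide block and 3 with the lymphocyte score, with both muscle and lymphocyte scores and with the adipocyte score, and 4 to 6 without single arrays. Between the WT groups the count of 10 was 6 with the lymphocyte score and with both scores, and 10 without single arrays. The lymphocyte score did not overlap between these WT groups, so models with it cannot separate score from line. The count of genes that follow Ucp1, 1, was 2 with rebuilt values, the median signal scaled to the 75th percentile, normexp, the mean over probes and the lymphocyte score, where Cox8b was added, and 0 with the slide block or the replicate block. It was 1 to 3 without single arrays: 2 without total ChREBP KO replicate 5, ChREBPβ WT replicate 1 or ChREBPβ WT replicate 6, and 3 without total ChREBP KO replicate 7. The Ucp1 difference in total ChREBP KO was -8.62 to -5.84 under the alternatives and -7.35 to -6.66 without single arrays.

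Same-numbered arrays of different groups had a mean correlation of -0.01 in their deviations (30 pairs, -0.44 to 0.50). For 3 arrays, the closest array of another group had their number. These pairs lay within and between the lines. The check therefore cannot show whether mice of 1 line were paired. With the replicate block the Ucp1 difference was -6.58 (limma adjusted p = 2.23e-06).

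Some single values changed sign, and the cause was not tested. With the adipocyte score, in total ChREBP KO Cox8b was -0.21 and Dio2 -0.55, in ChREBPβ KO Ppargc1a was -0.00772, between the KO effects Dio2 was 0.59 and between the WT groups Prdm16 was -0.016. In total ChREBP KO, Prdm16 was 0.00506 with normexp, 0.010 with array weights, 0.028 with the muscle score and -0.090 to 0.00502 without single arrays. In ChREBPβ KO, Cox7a1 was -0.00153 with wash batch and -0.083 with slide as a fixed block, and Ppargc1a was -0.062 and -0.050. Ppara there was 0.052 with array weights, 0.00765 with the lymphocyte score, 0.022 with both scores and -0.076 to 0.12 without single arrays, and Cpt1b was -0.24 to 0.045. The slope of Dio2 on Ucp1 was -0.00796 with the slide block and -0.055 to 0.18 without single arrays.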
